A study of Mus musculus with 24 samples.

Results

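The 7 genes described here encode the proteins that take heme apart and that store or release the iron it yields, namely Slc48a1, Hmox1, Blvra, Blvrb, Fth1, Ftl1 and Slc40a1. Their rows were found by Ensembl gene ID, through the symbols of GENCODE M21, and all 7 were among the 54752 rows of a TPM table of mouse bone marrow RNA and among the 12373 genes tested. The table covers 24 male C57BL/6 mice of the MHU-3 mission, with a library per mouse and 6 mice in each of 4 groups. Wild-type mice and Nrf2-knockout mice that had lived on the International Space Station for 31 days are called FL-WT and FL-KO, and ground control mice of the same genotypes GC-WT and GC-KO. The flight mice were 8 weeks old when they were transported to the launch site, 3 weeks before launch. All mice of the 4 groups were housed singly, and marrow was collected 2 days after landing, or at the corresponding time on the ground, from the pelvis and tibia of the right side. The cells were cryopreserved before RNA was isolated, so every library went through a freezing step. The knockout is of the whole animal and not of a marrow cell type. Blood of the flight mice was measured in the United States and that of the ground mice in Japan, so flight and site of handling cannot be told apart.

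Heme reaches the cytosol of a macrophage through HRG1, the transporter encoded by Slc48a1, after the cell has engulfed an old red cell. Heme oxygenase-1, the product of Hmox1, opens the heme ring and gives off iron, carbon monoxide and biliverdin, and biliverdin reductase A and B (Blvra and Blvrb) reduce biliverdins to bilirubins. Free iron is stored inside shells of ferritin heavy and light chains (Fth1 and Ftl1) or leaves the cell through ferroportin (Slc40a1), the only known iron exporter of mammals. In marrow, macrophages clear red cells and extruded nuclei, while developing erythroid cells take up iron to make heme. Several of these genes are textbook targets of Nrf2, Hmox1, Fth1, Ftl1 and Slc40a1 among them, which is why an Nrf2-knockout series bears on them.

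Fth1, Ftl1 and Slc40a1 share a control element in their RNA, the iron-responsive element, which is shown here because it sets these 3 genes apart from the other 4 by sequence. It is a short hairpin in the 5′ untranslated region. When iron is scarce, the iron regulatory proteins encoded by Aco1 and Ireb2 hold it and block translation, a step that RNA levels do not report. The letters searched on the sense strand were C, which is the bulged base, then 5 unspecified bases, then the loop CAGTGN. They were searched in the 5′ untranslated region of 1 transcript of each gene (GENCODE M21 on GRCm38). The loop letters are in capitals.
Fth1: gtttcctgcttcaaCAGTGCttgaacggaa
Ftl1: gtgtcttgcttcaaCAGTGTttgaacggaa
Slc40a1: tccaacttcagctaCAGTGTtagctaagtt
Blvra: taagctcccccttaCAGTGTtgacatctaa
The Fth1 element lies in exon 1 at chr19:9982730-9982759 on the plus strand. The Ftl1 element lies in exon 1 at chr7:45459780-45459809 on the minus strand. The Slc40a1 element lies in exon 1 at chr1:45925466-45925495 on the minus strand. In these 3 transcripts the 5 bases on each side of the loop pair with each other. The Blvra match, which is shown for contrast, holds the bulge and loop letters, lacks the 5 pairs and runs across the junction of exons 1 and 2. No match was found in the 5′ untranslated regions of Hmox1 (129 bases), Blvrb (140 bases) and Slc48a1 (126 bases). Of 9540 transcripts with a 5′ untranslated region of at least 150 bases, 484 (5.07%) held the letters in the first 150 bases. Only 4 (0.0419%) of them also held the stem, and these were Fth1, Ftl1, Slc40a1 and Nudt12. A second search covered RefSeq promoters (GRCm38.p6, 250 bases before the start), 1 for Blvra, 2 for Blvrb, 2 for Fth1 and 1 for Ftl1. Promoters of Hmox1, Slc40a1 and Slc48a1 were not searched. The core of the antioxidant response element, TGACNNNGC on either strand, was found once, as TGACCGAGC on the minus strand 49 bases before the start of Blvra, at chr2:127070608-127070616. It was present in 10.161% of 32851 promoters, and the GATA core AGATAA, present in 9.9875%, had no match in the promoters searched. A match is a run of letters and not a shown binding site.

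The depth of each library is unknown, since the table holds no read counts, so the errors below are those between mice. Nfe2l2, which encodes Nrf2, had a mean level of 21.3 ± 3.19 TPM for GC-WT, 4.97 ± 1.25 TPM for GC-KO, 18.6 ± 5.93 TPM for FL-WT and 3.06 ± 0.794 TPM for FL-KO mice (SD, n = 6 per group), and the genotypes did not overlap. Groups were compared by limma after taking log2(TPM + 1), and a gene is said to have passed at a Benjamini-Hochberg adjusted p under 0.1 over all 12373 genes. DEGs had in addition a fold change of at least 2. A few small RNAs took a large and uneven part of TPM, 41.0% to 58.2% for GC-WT, 40.1% to 59.6% for FL-WT, 35.4% to 48.4% for GC-KO and 46.1% to 59.3% for FL-KO mice. By its median log2 fold change the typical gene was below 0 in every comparison, at -0.24 (wild-type mice, flight against ground), -0.29 (knockout mice, flight against ground), -0.22 (knockout against wild type on the ground) and -0.25 (knockout against wild type in flight). Without the 5 small RNAs the medians were also below 0, at -0.31, -0.21, -0.35 and -0.23 in the same order. Each member's change is therefore also given after median-of-ratios scaling, which sets the typical gene to the same level in every library. It brings the medians of TPM as deposited to between -0.0012 and 0.0254. Where the 2 scales gave opposite directions, both are printed. Fold changes on either scale are differences of log2(value + 1), which understate the change of low genes such as Blvra.

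Since TPM is expressed per transcript length, levels can be compared between genes. Ferritin was by far the most abundant part of the set. In GC-WT mice, Ftl1 ranged from 848 to 1321 TPM with a median of 1094, and Fth1 from 484 to 764 TPM with a median of 641. Over all 24 libraries the mean level of Ftl1 was 959 TPM, exceeded by 65 tested genes, and that of Fth1 was 575 TPM, exceeded by 116. Both ferritin chains together held 0.170% ± 0.0291 of TPM for GC-WT mice, 0.163% ± 0.0310 for FL-WT, 0.153% ± 0.0129 for GC-KO and 0.128% ± 0.0113 for FL-KO mice (SD, n = 6 for each). Blvrb came next, at a mean of 118 TPM over all libraries, and its partner Blvra was the lowest of the set, at 7.24 TPM. Hmox1 (29.8 TPM), Slc48a1 (31.6 TPM) and Slc40a1 (22.1 TPM) lay between them.

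The order Ftl1, Fth1, Blvrb held in all 24 libraries, and the ranges of these 3 genes did not overlap within any group. Blvra was below every other member in all 24 libraries. Among the 3 genes in the middle, Slc48a1 was above Slc40a1 in all 24 libraries, although their ranges overlapped in each group, while the place of Hmox1 was not settled. In GC-WT mice, Slc48a1 had the higher median (40.4 TPM against 35.7 TPM for Hmox1) but was above Hmox1 in only 3 of 6 libraries. In FL-WT mice this order was turned, with Hmox1 at a median of 36.8 TPM and above Slc48a1 in 5 of 6 libraries. Hmox1 was above Slc40a1 in 5 of 6 GC-WT libraries, in 6 of 6 FL-WT libraries and in 4 of 6 libraries of each knockout group. Reads from ferritin pseudogenes were a small matter. Of 14 rows for ferritin pseudogenes and related genes, 10 stayed under 0.1 TPM in every library and 2 had a mean of at least 1 TPM. Ftl1-ps1 amounted to 2.43% ± 0.152 of Ftl1 in GC-WT mice and 2.56% ± 0.191 in FL-KO mice (SD, n = 6), and since it is nearly a copy of Ftl1 the split of reads between them is uncertain.

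**Figure D1:**
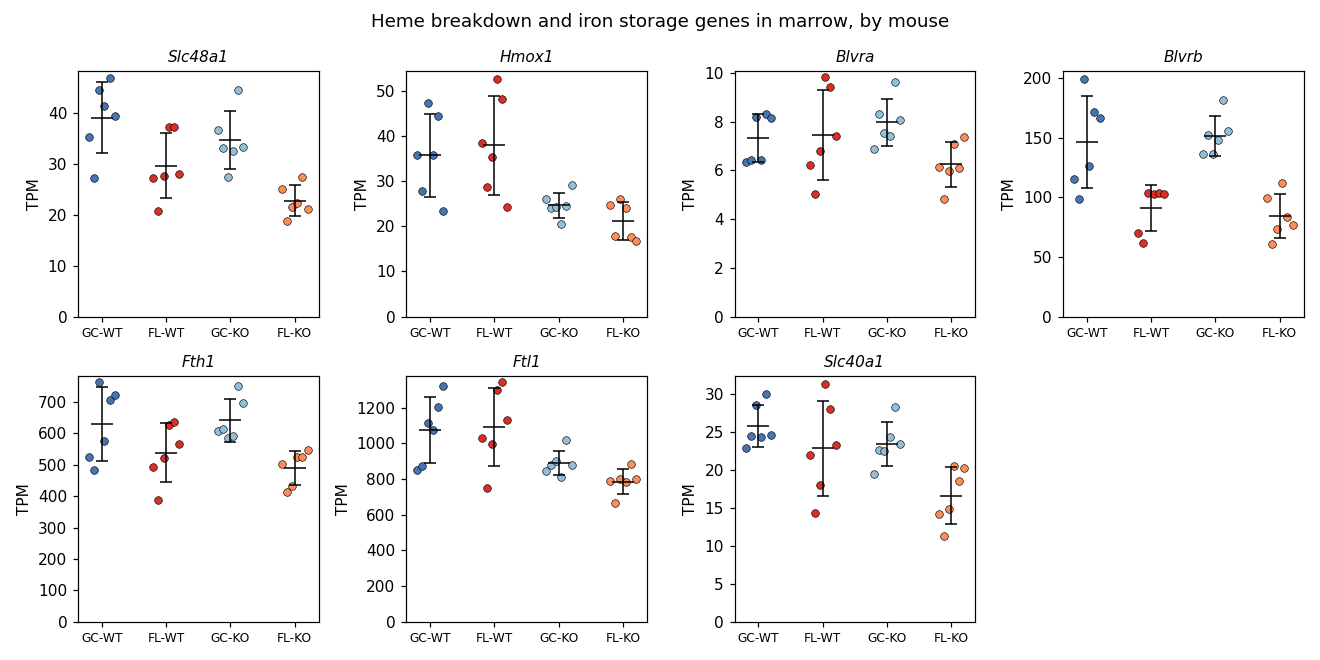
Level of each of the 7 genes in TPM (vertical axis, from 0) in the 6 mice of each group (points), with the mean and SD (bars). Blvrb and Fth1 of the FL-KO mice sit below all GC-KO mice, while Hmox1 of the WT groups spreads from 23.5 to 52.6 TPM.

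In flight, Blvrb was the member with the largest change at TPM as deposited, and it fell in both genotypes. With median-of-ratios scaling it did not pass in wild-type mice (-0.29, adjusted p = 0.139), where Hmox1 (0.45), Ftl1 (0.40) and Blvra (0.33) lay farther from 0. In wild-type mice 2 of 7 members passed the test as lower, Blvrb and Slc48a1, against 39.0% of all tested genes, and none passed as higher, against 0.994%. In Nrf2-knockout mice 5 of 7 passed as lower, Blvrb, Slc48a1, Slc40a1, Fth1 and Blvra, against 53.1%, and none as higher, against 0.299%. These shares lie near those of all genes. No member was a DEG in either flight comparison by limma or by the exact rank-sum test, and no member reached a fold change of 2, while 0.938% and 2.13% of all genes were DEGs with lower levels and 0.0647% and 0.0% with higher levels. At an unadjusted p under 0.05, limma gave the same number of members, 2 and 5. No member separated the wild-type groups without overlap, beside 4.19% of all genes that were lower and 0.097% that were higher, and 2 members, Blvrb and Fth1, were lower without overlap in knockout mice and none higher, beside 18.4% and 0.0323%. On values with median-of-ratios scaling, flight and ground mice overlapped for each member in both genotypes. On that scale 2.48% of all genes were lower and 3.23% higher without overlap in wild-type mice, and 6.92% and 5.98% in knockout mice. With median-of-ratios scaling, 4 members passed as higher and none as lower in wild-type mice, beside 20.6% and 13.6% of all genes, and 1 passed as higher and 1 as lower in knockout mice, beside 19.1% and 20.4%. The members' median log2 fold change was -0.21 in wild-type mice and -0.39 in knockout mice, beside -0.24 and -0.29 for all genes. In bulk RNA, fewer cells of a type and less RNA of a gene per cell cannot be told apart, which holds for each value below.

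Slc48a1, which lets heme out of the phagolysosome, ranged from 27.4 to 47.0 TPM (median 40.4) in GC-WT mice and from 20.8 to 37.4 TPM (median 27.9) in FL-WT mice. In knockout mice it ranged from 27.5 to 44.7 TPM (median 33.4) on the ground and from 18.9 to 27.5 TPM (median 22.1) in flight. The FL-KO mice were nearly all below the GC-KO mice, with 1 of 36 pairs of mice in the other order, and the wild-type groups overlapped. It fell by 0.39 on the log2 scale in wild-type mice (SE 0.144, adjusted p = 0.0417) and by 0.58 in knockout mice (SE 0.144, adjusted p = 0.00312). With median-of-ratios scaling these were -0.02 (adjusted p = 0.922) and -0.15 (adjusted p = 0.301), so its fall was close to that of the typical gene. The wild-type call also rested on single mice, with an adjusted p of up to 0.137 without GC-WT mouse 6, GC-WT mouse 8 or FL-WT mouse 5, each left out in turn. The wild-type fall did not pass in the exact rank-sum test (adjusted p = 0.198).

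Hmox1, the heme-opening enzyme, ranged from 23.5 to 47.1 TPM (median 35.7) in GC-WT mice and from 24.3 to 52.6 TPM (median 36.8) in FL-WT mice. It ranged from 20.6 to 29.0 TPM (median 24.3) in GC-KO mice and from 16.8 to 26.0 TPM (median 20.9) in FL-KO mice. The flight and ground ranges overlapped in both genotypes. The log2 fold change was 0.08 in wild-type mice (95% interval -0.28 to 0.43, adjusted p = 0.751) and -0.23 in knockout mice (95% interval -0.58 to 0.13, adjusted p = 0.278). Neither value passed, and a change within these bounds was not excluded. Relative to the typical gene, it was higher in FL-WT than in GC-WT mice (0.45 with median-of-ratios scaling, SE 0.176, adjusted p = 0.0624), a call that held in 19 of 24 fits with 1 library left out and was lost (adjusted p of up to 0.129) without GC-WT mouse 5 or 10 or FL-WT mouse 5, 6 or 8. The value in knockout mice changed sign with that scaling, to 0.21 (adjusted p = 0.392). Here and below, fits that left out a library of neither compared group could not move the fold change, only its error.

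The biliverdin reductases differed from each other. Blvrb, which in red cells also acts as a flavin reductase, ranged from 98.6 to 199 TPM (median 147) in GC-WT mice and from 61.8 to 104 TPM (median 103) in FL-WT mice. In knockout mice it ranged from 136 to 182 TPM (mean 151.8) on the ground and from 60.8 to 112 TPM (median 80.3) in flight. Every FL-KO mouse was below every GC-KO mouse, as was the case for 18.4% of all tested genes, and among wild-type mice 4 of 36 pairs were in the other order. With median-of-ratios scaling the knockout groups overlapped, with FL-KO mice up to 147.8 and GC-KO mice from 136.3. Mean TPM was 37.9% lower in FL-WT than in GC-WT mice and 44.5% lower in FL-KO than in GC-KO mice. It fell by 0.67 on the log2 scale in wild-type mice (SE 0.169, adjusted p = 0.00586) and by 0.86 in knockout mice (SE 0.169, adjusted p = 5.0e-04). It passed in both comparisons with each of the 24 libraries left out in turn, with adjusted p-values of up to 0.0245 and 0.00245. Blvrb was also lower with median-of-ratios scaling, by -0.29 in wild-type mice (adjusted p = 0.139) and by -0.42 in knockout mice (adjusted p = 0.0291). The knockout call on that scale held without each library in turn, and the wild-type value passed in 2 of these 24 fits. With quantile normalization it passed in both genotypes, at -0.60 and -0.56. The exact two-sided rank-sum test gave adjusted p = 0.123 for it in wild-type mice and 0.0117 in knockout mice.

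Blvra, the reductase of biliverdin IXα, ranged from 6.35 to 8.30 TPM in GC-WT mice and from 5.02 to 9.83 TPM in FL-WT mice, with medians of 7.29 and 7.10 TPM. It ranged from 6.87 to 9.63 TPM (median 7.78) in GC-KO mice and from 4.81 to 7.38 TPM (median 6.10) in FL-KO mice. The GC-WT range lay within the FL-WT range, and 2 of 36 pairs of knockout mice had the flight mouse higher. The log2 fold change was 0.003 in wild-type mice (SE 0.129, adjusted p = 0.989), and it fell by 0.31 in knockout mice (SE 0.129, adjusted p = 0.0535). The latter call was lost without GC-KO mouse 11 or FL-KO mouse 2 (adjusted p of up to 0.144). With median-of-ratios scaling Blvra was higher in FL-WT than in GC-WT mice, by 0.33 (SE 0.0796, adjusted p = 0.00388), and the direction in knockout mice turned to 0.08 (adjusted p = 0.446).

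The ferritin chains did not move alike. Fth1, the chain with the ferroxidase site, ranged from 484 to 764 TPM (median 641) in GC-WT mice and from 388.5 to 636 TPM (median 543) in FL-WT mice. In knockout mice it ranged from 584.5 to 752 TPM (median 611) on the ground and from 414 to 548 TPM (median 513) in flight, with no overlap between these 2 groups. With median-of-ratios scaling they overlapped, at 547.3 to 683.7 on the ground and 582.2 to 747.6 in flight. It fell by 0.39 in knockout mice (SE 0.130, adjusted p = 0.0210), and the log2 fold change in wild-type mice was -0.22 (SE 0.130, adjusted p = 0.185). With median-of-ratios scaling both values turned positive, 0.16 (adjusted p = 0.193) in wild-type mice and 0.06 (adjusted p = 0.625) in knockout mice. Ftl1, the chain that helps iron mineralize in the core, ranged from 848 to 1321 TPM in GC-WT mice and from 748 to 1343 TPM (median 1079) in FL-WT mice. Its range was 813 to 1015 TPM (median 879) in GC-KO mice and 666 to 883 TPM (median 793) in FL-KO mice. The flight and ground ranges overlapped in both genotypes. The log2 fold change of Ftl1 was 0.02 in wild-type mice (SE 0.128, adjusted p = 0.930) and -0.18 in knockout mice (SE 0.128, adjusted p = 0.247). With median-of-ratios scaling Ftl1 was higher in flight in both genotypes, by 0.40 (SE 0.0961, adjusted p = 0.00377) and 0.27 (SE 0.0961, adjusted p = 0.0356). With quantile normalization the value in knockout mice was 0.05 and did not pass (adjusted p = 0.614).

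Slc40a1, the iron exporter, ranged from 22.8 to 29.95 TPM (median 24.5) in GC-WT mice and more widely, from 14.3 to 31.3 TPM (median 22.6), in FL-WT mice. It ranged from 19.4 to 28.2 TPM (median 23.1) in GC-KO mice and from 11.3 to 20.5 TPM (median 16.7) in FL-KO mice. The FL-KO mice lay below the GC-KO mice in all but 2 of 36 pairs. It fell by 0.49 on the log2 scale in knockout mice (SE 0.154, adjusted p = 0.0146), and the value in wild-type mice was -0.21 (SE 0.154, adjusted p = 0.300). With median-of-ratios scaling these were -0.07 (adjusted p = 0.501) and 0.16 (adjusted p = 0.0937), and the latter passed in only 9 of 24 fits with 1 library left out.

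**Figure D2:**
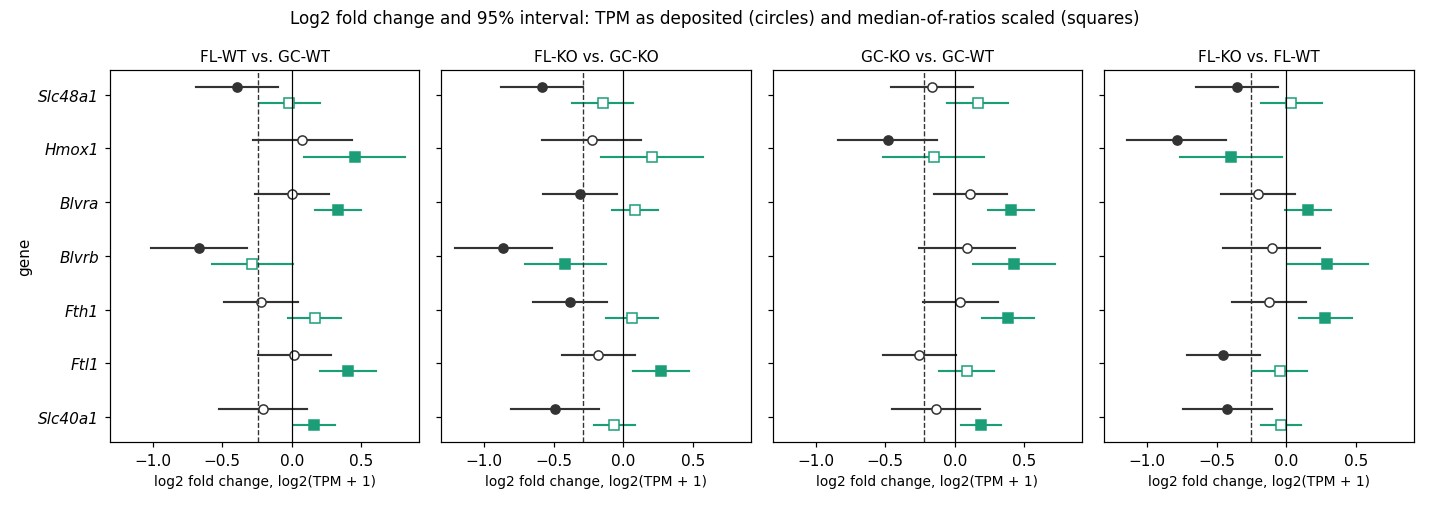
Log2 fold change of each gene on the log2(TPM + 1) scale (horizontal axis) with its 95% interval in the 4 comparisons, for TPM as deposited (circles) and after median-of-ratios scaling (squares). Filled symbols passed at an adjusted p under 0.1, the dashed line is the median of all tested genes for TPM as deposited, and only Blvrb in flight and Hmox1 in knockout mice stay left of 0 on both scales in each comparison of their kind, along with Slc48a1 in flight.

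Without Nrf2, Hmox1 was the member with the largest change at TPM as deposited, and it fell both on the ground and in flight. With median-of-ratios scaling on the ground it did not pass (-0.15, adjusted p = 0.490), while Blvrb (0.43), Blvra (0.41) and Fth1 (0.38) passed as higher. On the ground 1 of 7 members, Hmox1, passed as lower in knockout than in wild-type mice, against 42.9% of all genes, and none passed as higher, against 3.13%. In flight 4 of 7 members, Hmox1, Ftl1, Slc40a1 and Slc48a1, passed as lower in FL-KO than in FL-WT mice, against 47.2%, and none as higher, against 1.91%. No member was a DEG by limma or by the exact rank-sum test in either comparison, beside 3.04% and 8.36% of all genes that were DEGs with lower levels and 0.129% and 0.097% with higher levels. The number of members with an unadjusted p under 0.05 was 1 on the ground and 4 in flight. With median-of-ratios scaling 4 members passed as higher and none as lower on the ground, beside 28.3% and 28.9% of all genes, and in flight 3 passed as higher and 1 as lower, beside 31.9% and 32.9%. The members' median log2 fold change was -0.14 on the ground and -0.35 in flight, beside -0.22 and -0.25 for all genes. The genotypes' ranges overlapped for each of the 7 genes on the ground and in flight, while on the ground 9.15% of all genes were lower and 0.218% higher without overlap, and in flight 20.6% and 0.307%.

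For Hmox1, mean TPM was 30.9% lower in knockout mice on the ground and 44.2% lower in flight. The highest GC-KO value, 29.0 TPM, was above 2 of the 6 GC-WT mice, and the highest FL-KO value, 26.0 TPM, was above 1 of the 6 FL-WT mice. It fell by 0.48 on the log2 scale on the ground (SE 0.174, adjusted p = 0.0296) and by 0.79 in flight (SE 0.174, adjusted p = 5.8e-04). Hmox1 passed in both comparisons with each of the 24 libraries left out in turn. The direction held with median-of-ratios scaling, at -0.15 on the ground (adjusted p = 0.490) and -0.40 in flight (adjusted p = 0.0581), so that only the difference in flight was past the threshold on both scales. On the scaled values it passed in 20 of 24 fits that each left out 1 library, and leaving out FL-WT mouse 6, FL-WT mouse 8, FL-KO mouse 11 or FL-KO mouse 12 took it to an adjusted p of up to 0.151. The exact two-sided rank-sum test gave adjusted p = 0.132 on the ground and 0.0283 in flight.

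Ftl1 fell by 0.45 in FL-KO against FL-WT mice (SE 0.128, adjusted p = 0.00533), and 5 of 36 pairs were in the other order. On the ground its log2 fold change was -0.25 (SE 0.128, adjusted p = 0.120). With median-of-ratios scaling these were -0.05 (adjusted p = 0.692) and 0.09 (adjusted p = 0.472). Its partner Fth1 was at -0.12 in flight (SE 0.130, adjusted p = 0.488) and 0.04 on the ground (SE 0.130, adjusted p = 0.834), and with median-of-ratios scaling it was higher in knockout mice, by 0.28 (adjusted p = 0.0115) and 0.38 (adjusted p = 0.00197). With quantile normalization Fth1 passed in the other direction, at -0.17 in flight (adjusted p = 0.0340) and -0.16 on the ground (adjusted p = 0.0564), so its direction depended on the scaling.

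Slc40a1 fell by 0.42 (SE 0.154, adjusted p = 0.0278) and Slc48a1 by 0.35 (SE 0.144, adjusted p = 0.0484) in FL-KO against FL-WT mice. Neither passed in the exact rank-sum test (adjusted p = 0.1875 and 0.1407). The call for Slc48a1 was lost without FL-WT mouse 7, FL-WT mouse 8 or FL-KO mouse 2 (adjusted p of up to 0.139). On the ground Slc40a1 was at -0.14 (adjusted p = 0.518) and Slc48a1 at -0.16 (adjusted p = 0.389). With median-of-ratios scaling both were near the typical gene in flight, at -0.04 (adjusted p = 0.673) and 0.04 (adjusted p = 0.776). On the ground that scaling turned Slc40a1 to 0.19 (adjusted p = 0.0294) and Slc48a1 to 0.17 (adjusted p = 0.196).

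Neither reductase passed between the genotypes. Blvra was at 0.11 on the ground (SE 0.129, adjusted p = 0.522) and -0.20 in flight (SE 0.129, adjusted p = 0.222), and Blvrb at 0.09 (SE 0.169, adjusted p = 0.719) and -0.10 (SE 0.169, adjusted p = 0.666). Relative to the typical gene both were higher in GC-KO mice, Blvra by 0.41 (adjusted p = 5.8e-04) and Blvrb by 0.43 (adjusted p = 0.0163), and on that scale every GC-KO mouse was above every GC-WT mouse for both, as was the case for 3.04% of all genes. In flight the scaled values were 0.15 (adjusted p = 0.0991) for Blvra and 0.30 (adjusted p = 0.0762) for Blvrb. With 1 library left out they passed in 9 and 18 of 24 fits, with adjusted p-values of up to 0.210 and 0.207, and Blvrb was lost without FL-WT mouse 3, 5, 7 or 8 or FL-KO mouse 1 or 9.

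Whether the change in flight differed without Nrf2 was asked with the interaction of flight and genotype. All 7 values were negative, from -0.16 for Fth1 to -0.32 for Blvra, beside a median of -0.06 over all genes, while Blvrb and Ftl1 turned positive with quantile normalization and Blvrb, Fth1, Ftl1 and Slc48a1 without the 5 small RNAs. At TPM as deposited no member passed in limma, and none had an unadjusted p under 0.05, while 0.0162% of all genes passed as lower. The 95% interval was -0.69 to 0.06 for Blvra, -0.81 to 0.20 for Hmox1 and -0.68 to 0.30 for Blvrb, so that a stronger fall of Blvrb in knockout mice by more than 0.68 lay outside it. With median-of-ratios scaling all 7 values were again negative, beside a median of -0.03 over all genes. None passed, while 0.234% of all genes passed as lower. On that scale the unadjusted 95% intervals of Blvra (-0.48 to -0.02) and Slc40a1 (-0.43 to -0.02) did not reach 0.

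A ratio of 2 genes within a library does not depend on how libraries are scaled to each other. Of the genes' possible ratios 8 were computed. They were chosen with the values in view and are descriptions without a test. Over 4 comparisons each, 6 of 32 ratio comparisons had groups that did not overlap, and 4 of the 8 ratios overlapped in every comparison. The ratio of Blvrb to Ftl1 was 0.136 ± 0.0238 on the ground and 0.0838 ± 0.0127 in flight in wild-type mice, and 0.171 ± 0.0120 on the ground and 0.107 ± 0.0219 in flight in knockout mice (SD, n = 6 for each). Flight and ground mice did not overlap in either genotype. The ratio to Ftl1 separated the groups in this direction for 8.67% of all genes in wild-type mice and 10.7% in knockout mice.

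The ferritin chains themselves were in different proportion. Fth1 over Ftl1 ranged from 0.537 to 0.685 in GC-WT mice and from 0.474 to 0.523 in FL-WT mice, without overlap. It ranged from 0.648 to 0.796 in GC-KO mice and from 0.543 to 0.686 in FL-KO mice, where 2 of 36 pairs were in the other order. The ratio was lower in flight and higher without Nrf2. All FL-KO mice were above all FL-WT mice, as was the case for 9.63% of all genes over Ftl1, and on the ground, where 5.04% of all genes over Ftl1 were higher without overlap, 35 of 36 pairs had the higher ratio in the knockout mouse. In wild-type mice, 8.67% of all genes over Ftl1 were lower in flight without overlap.

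Blvrb over Blvra had a mean of 19.8 ± 3.004 in GC-WT and 19.1 ± 0.778 in GC-KO mice, and 12.4 ± 1.90 in FL-WT and 13.5 ± 2.19 in FL-KO mice (SD, n = 6 for each). The flight and ground groups did not overlap in knockout mice, as for 4.86% of all genes over Blvra, and 1 of 36 wild-type pairs was in the other order. Hmox1 over Blvrb had a median of 0.270 for GC-WT, 0.465 for FL-WT, 0.167 for GC-KO and 0.234 for FL-KO mice. It was higher in every FL-KO than in every GC-KO mouse, as for 19.1% of all genes over Blvrb, and in 31 of 36 wild-type pairs. Hmox1 over Hmox2, the constitutive heme oxygenase, was 2.41 ± 0.634 for GC-WT, 2.65 ± 0.495 for FL-WT, 2.10 ± 0.449 for GC-KO and 2.11 ± 0.488 for FL-KO mice (SD, n = 6 for each), and these ranges overlapped in each comparison. The ratios of Slc48a1 to Hmox1 (medians 1.025, 0.750, 1.403 and 1.03 in that group order), Slc40a1 to Hmox1 (0.678, 0.577, 0.938 and 0.744) and Hmox1 to Ftl1 (0.0351, 0.0365, 0.0270 and 0.0288) overlapped in each comparison as well.

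**Figure D3:**
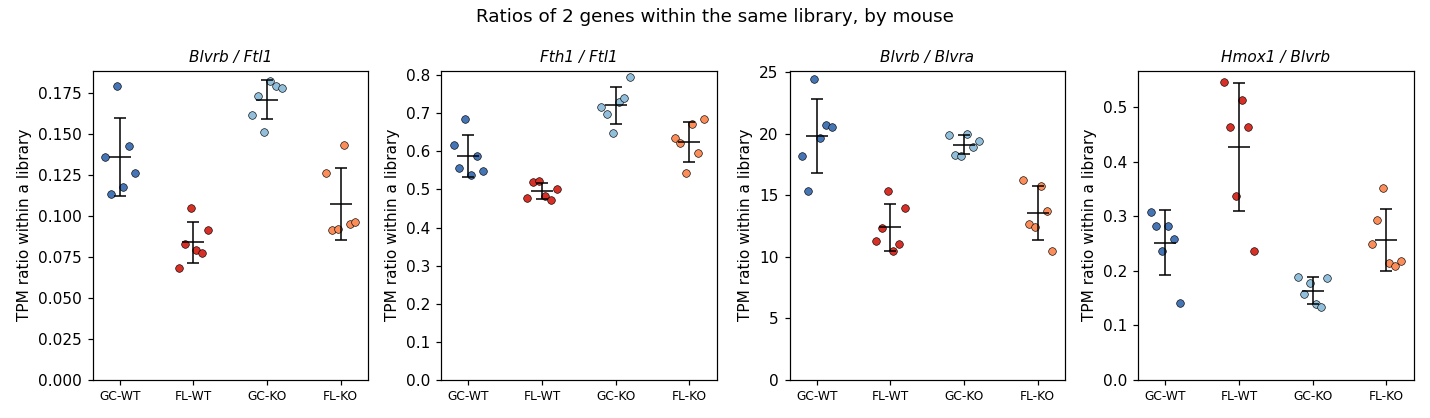
Ratio of the TPM of 2 genes within each library (vertical axis, from 0) in the 6 mice of each group (points), with mean and SD (bars), for Blvrb over Ftl1, Fth1 over Ftl1, Blvrb over Blvra and Hmox1 over Blvrb. Blvrb over Ftl1 lies between 0.0682 and 0.105 in FL-WT mice, below all GC-WT mice.

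The genes around the pathway were taken from lists. Their counts stand beside the shares of all tested genes that passed as lower, which were 39.0% in wild-type and 53.1% in knockout mice in flight, and 42.9% without Nrf2 on the ground and 47.2% in flight. With median-of-ratios scaling these shares were 13.6%, 20.4%, 28.9% and 32.9% in the same order. On that scale the shares that passed as higher were 20.6%, 19.1%, 28.3% and 31.9%. The scaled counts of these lists and of the cell type markers below stand beside them. Of 10 genes of heme transport and clearance, 6 were tested. In wild-type mice in flight 3 of them fell and none rose, namely the heme and porphyrin exporter Abcg2 (-0.75, adjusted p = 0.00356), the haemoglobin-haptoglobin receptor Cd163 (-0.55, adjusted p = 0.0232) and the hemopexin receptor Lrp1 (-0.53, adjusted p = 0.0599). Abcg2, Cd163 and Lrp1 also passed in knockout mice in flight, at -0.93 (adjusted p = 3.5e-04), -0.65 (adjusted p = 0.00638) and -0.52 (adjusted p = 0.0523). With median-of-ratios scaling Abcg2 passed in both genotypes (-0.39 and -0.52, adjusted p = 0.03235 and 0.00545). Cd163 then passed in knockout mice only (-0.29 and -0.39, adjusted p = 0.130 and 0.0386), and Lrp1 in neither (-0.24 and -0.26, adjusted p = 0.302 and 0.230). Cd163 is also among the macrophage markers below. Hmox2 did not pass in flight (-0.07 and -0.22, adjusted p = 0.698 and 0.195). With median-of-ratios scaling it passed as higher, at 0.28 (adjusted p = 0.00189) and 0.20 (adjusted p = 0.0187). Between genotypes 4 of 6 fell on the ground, against 42.9% of all genes, and 4 of 6 in flight, against 47.2%. With median-of-ratios scaling the list split, with 1 lower and 3 higher in wild-type and 2 lower and 3 higher in knockout mice in flight, and 2 lower and 1 higher in each genotype comparison. The haptoglobin gene Hp was at 135 ± 22.2 in FL-KO and 283 ± 74.0 in FL-WT mice (SD, n = 6) and fell by 1.03 on the log2 scale (adjusted p = 9.7e-06). Flvcr2, Slc46a1, Hpx and Ambp stayed at or under 0.3 TPM and were not tested.

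Of 14 genes of iron handling and ferritin turnover, 10 were tested, and 6 fell in flight in wild-type and 9 in knockout mice, with none higher. Their median log2 fold change was -0.51 and -0.73, beside -0.24 and -0.29 for all genes. The genes of iron uptake into erythroid cells changed most. Mitoferrin-1 (Slc25a37), which carries iron into mitochondria, was at 230 ± 65.6 TPM for GC-WT, 97.7 ± 19.0 TPM for FL-WT, 194 ± 45.3 TPM for GC-KO and 82.9 ± 16.98 TPM for FL-KO mice (SD, n = 6 for each). It fell in both genotypes, with log2 fold changes of -1.195 in wild-type (adjusted p = 8.9e-05) and -1.21 in knockout mice (adjusted p = 4.7e-05). The transferrin receptor Tfrc fell too, at -1.04 (adjusted p = 0.00117) and -1.17 (adjusted p = 2.4e-04). The endosomal iron transporter Slc11a2 fell in wild-type (-0.97, adjusted p = 1.4e-04) and in knockout mice (-1.002, adjusted p = 5.5e-05). The ferrireductase Steap3 fell in both as well (-0.80, adjusted p = 0.00360, and -1.10, adjusted p = 1.3e-04). These 4 genes also passed as lower with median-of-ratios scaling, where 5 of the 10 were lower and 1 higher in wild-type mice and 7 were lower in knockout mice. Ncoa4, the receptor that delivers ferritin for breakdown, was at -0.21 in wild-type mice (adjusted p = 0.200) and -0.45 in knockout mice (adjusted p = 0.00760), and at 0.17 and -0.0005 with that scaling.

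Between genotypes, 4 of these 10 genes fell on the ground and 5 in flight, against 42.9% and 47.2% of all genes, and with median-of-ratios scaling 4 were lower in each and 2 and 1 were higher. The iron chaperones Pcbp1 and Pcbp2, RNA-binding proteins that also hand iron to ferritin, fell on the ground (-0.87 and -0.81, adjusted p = 0.00114 and 0.00101) and in flight (-1.35 and -1.14, adjusted p = 4.4e-06 and 1.1e-05). Slc11a1, an iron transporter of phagocytes, fell by 0.72 (adjusted p = 0.00260) and by 1.06 (adjusted p = 2.9e-05). Ferroportin's ligand hepcidin (Hamp), Heph, Ftmt and Slc39a14 stayed at or under 0.73 TPM and were not tested.

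Of 10 regulators of ferritin, ferroportin and heme oxygenase, 9 were tested, and 4 fell in wild-type and 7 in knockout mice in flight, against 39.0% and 53.1% of all genes. With median-of-ratios scaling 1 was lower and 1 higher in wild-type mice, and 4 were lower and 1 higher in knockout mice. Bach1, the heme-sensing repressor of Hmox1, had a mean of 9.72 TPM in ground and 7.91 TPM in flight mice among wild types (-0.30, adjusted p = 0.102) and fell by 0.39 in knockout mice (adjusted p = 0.0297). Of the partners of Nrf2 and Bach1, Mafk fell by 0.72 and 0.86 in flight (adjusted p = 0.00115 and 1.2e-04) and Mafg by 0.40 and 0.69 (adjusted p = 0.0491 and 0.00130). Keap1, which marks Nrf2 for breakdown, fell by 0.37 and 0.65 in flight (adjusted p = 0.0559 and 0.00135). Of the iron regulatory proteins, Aco1 was at -0.26 in wild-type mice (adjusted p = 0.141) and fell by 0.49 in knockout mice (adjusted p = 0.00686), and Ireb2 was at -0.02 (adjusted p = 0.952) and fell by 0.41 (adjusted p = 0.0621). With median-of-ratios scaling Mafk passed as lower in both genotypes (-0.37 and -0.48), and Mafg, Keap1 and Aco1 only in knockout mice (-0.28, -0.31 and -0.25). In wild-type mice Mafg and Keap1 were at -0.03, Aco1 at 0.004, Bach1 at 0.04 and Ireb2 at 0.30 on that scale, and none of them passed. Bach1 (-0.006) and Ireb2 (-0.03) did not pass in knockout mice. Spic, the factor of red pulp and marrow macrophages that heme induces, had a mean of 2.27 TPM in ground and 1.62 TPM in flight mice among wild types and fell by 0.31 (adjusted p = 0.0982), but was at -0.06 with median-of-ratios scaling (adjusted p = 0.746) and did not pass in knockout mice (-0.21, adjusted p = 0.231). Without Nrf2, 6 of 9 regulators fell on the ground and 6 in flight, against 42.9% and 47.2% of all genes, and with median-of-ratios scaling 5 and 6 were lower and 3 and 2 higher. Nfe2l2 itself fell by 1.91 and 2.23 (adjusted p = 2.5e-08 and 1.4e-09) and Keap1 by 0.68 and 0.97 (adjusted p = 8.6e-04 and 7.4e-06).

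Nrf2 target genes outside heme breakdown gave a reference for Hmox1 in the knockout. Of 8, 7 were tested and 6 fell without Nrf2 on the ground and 6 in flight, with none higher, against 42.9% and 47.2% of all genes. Their medians were -0.40 and -0.45, beside -0.22 and -0.25 for all genes. Txnrd1 fell by 0.94 and 0.97 (adjusted p = 2.6e-04 and 7.7e-06) and Srxn1, at 2.10 TPM in GC-WT mice, by 0.83 and 0.63 (adjusted p = 9.1e-06 and 2.2e-05). Hmox1 fell by 0.48 and 0.79 in the same comparisons, and the difference from these genes was not tested. With median-of-ratios scaling 2 of the 7 passed as lower on the ground and 3 in flight, Txnrd1 and Srxn1 among them. In flight 4 of these 7 genes fell and 1 rose in wild-type mice, and 3 fell and 1 rose in knockout mice, against 39.0% and 53.1% of all genes that fell. With median-of-ratios scaling 2 were lower and 3 higher in wild-type mice, and 3 lower and 3 higher in knockout mice. Gclc fell by 0.81 and 0.87 (adjusted p = 0.00106 and 3.5e-04), and the cystine carrier Slc7a11 rose by 0.36 and 0.42 (adjusted p = 0.0345 and 0.0113).

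**Figure D4:**
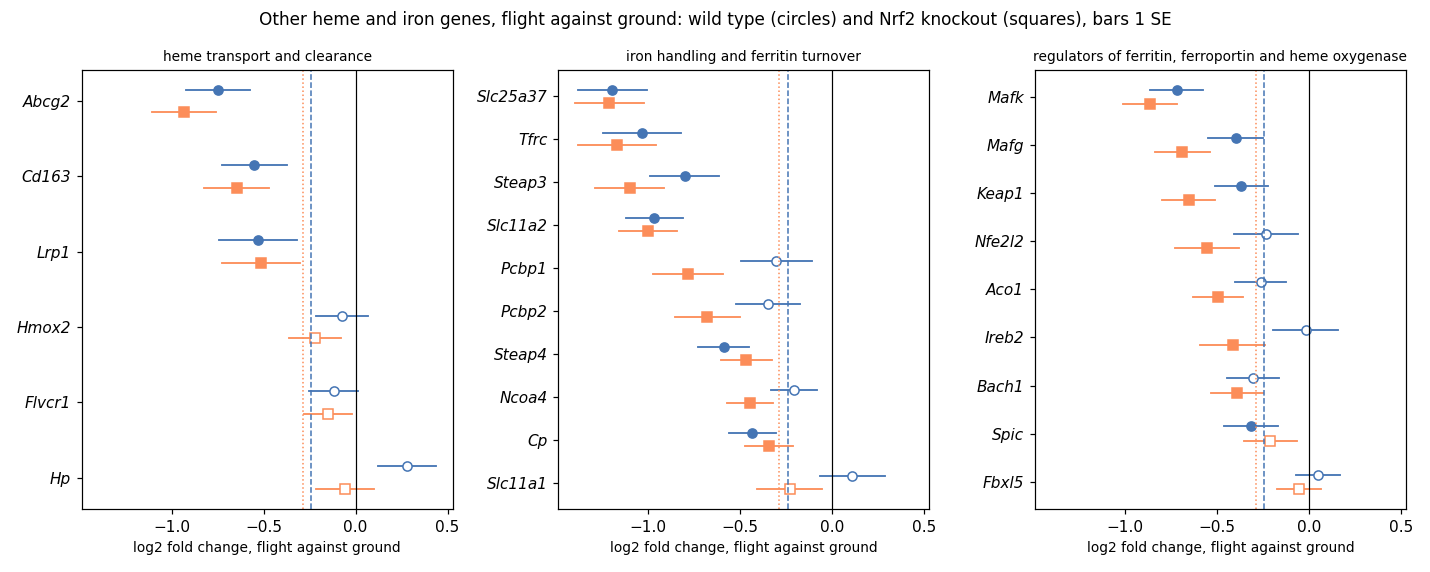
Log2 fold change in flight on the log2(TPM + 1) scale (horizontal axis) of the tested genes of 3 lists, in wild-type (circles) and Nrf2-knockout mice (squares), with bars of 1 SE and filled symbols at an adjusted p under 0.1. The dashed and dotted lines are the medians of all genes (-0.24 and -0.29), and Slc25a37 lies farthest below them, at -1.195 and -1.21.

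Markers of several marrow cell types also differed between the groups, in different directions. Of 11 erythroid markers in the table, all tested, 6 fell in flight in wild-type mice and 7 in knockout mice, with none higher, against 39.0% and 53.1% of all genes, while with median-of-ratios scaling 6 were lower in each genotype and 4 and 1 were higher. Their summed level without the 4 haemoglobin genes was 864 to 1880 TPM for GC-WT, 679 to 1139 TPM for FL-WT, 1252 to 2147 TPM for GC-KO and 704 to 1119 TPM for FL-KO mice. Flight and ground mice did not overlap in this sum among knockout mice. With the haemoglobin genes, which dominate it, the sum overlapped in both genotypes. It was then 87030 to 203800 TPM for GC-WT, 144900 to 206900 TPM for FL-WT, 166000 to 244800 TPM for GC-KO and 152900 to 222500 TPM for FL-KO mice. Haemoglobin RNA did not pass as lower in flight in either genotype, with Hbb-bs at 0.23 (adjusted p = 0.308) and -0.0002 (adjusted p = 1.0). With median-of-ratios scaling the erythroid markers that passed as higher in flight were haemoglobin genes, with Hbb-bs at 0.62 (adjusted p = 0.02455) and 0.45 (adjusted p = 0.0870). Without Nrf2, 3 erythroid markers fell and 3 rose on the ground, against 42.9% and 3.13% of all genes. In flight 3 fell and 2 rose without Nrf2, against 47.2% and 1.91%. With median-of-ratios scaling 1 was lower and 7 were higher on the ground, and 2 were lower and 8 higher in flight. The part of the erythroid markers in the fall of Blvrb, Slc48a1 and Fth1, or in the scaled rises of Blvra, Blvrb and Fth1 without Nrf2, was not tested.

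Of 12 marrow macrophage markers, 10 were tested, and 4 fell in flight in wild-type mice and 9 in knockout mice, against 39.0% and 53.1% of all genes. With median-of-ratios scaling 1 was lower and 2 were higher in wild-type mice, and 2 were lower in knockout mice. Their summed level was 71.6 to 134 TPM for GC-WT, 62.1 to 112 TPM for FL-WT, 76.2 to 95.6 TPM for GC-KO and 44.6 to 77.8 TPM for FL-KO mice. The macrophage receptors Timd4 and Vsig4 stayed at or under 0.67 and 0.88 TPM, and Siglec1, which marks the macrophages of erythroblastic islands, was at 1.92 TPM in GC-WT mice. Cd5l fell by 1.13 in FL-KO against FL-WT mice (adjusted p = 7.8e-06), and 6 of 10 macrophage markers fell in that comparison and 3 on the ground, against 47.2% and 42.9% of all genes. With median-of-ratios scaling 1 was lower there, and on the ground none was lower and 2 were higher. The part of the macrophage markers in the fall of Hmox1 and Slc40a1 was not tested.

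Of 8 monocyte markers, all tested, none passed in wild-type mice in flight by limma, against 39.0% of all genes that passed as lower, while 4 rose with median-of-ratios scaling. In knockout mice 3 fell in flight, against 53.1%, and without Nrf2 5 fell on the ground and 6 in flight, against 42.9% and 47.2%. With that scaling 1 was lower and 3 were higher in knockout mice in flight. Without Nrf2 4 were lower and 1 higher on the ground, and 5 lower and 1 higher in flight, on the same scale. Their sum was 447 to 603 TPM for GC-WT, 400.3 to 731 TPM for FL-WT, 325 to 552 TPM for GC-KO and 299 to 431 TPM for FL-KO mice, so the sums of FL-WT and FL-KO mice overlapped. Of 10 neutrophil markers, 3 rose in wild-type mice in flight, among them S100a8 (0.55, adjusted p = 0.00503), against 0.994% of all genes that passed as higher. In knockout mice 3 fell in flight, against 53.1%. Between genotypes 7 fell in each comparison, against 42.9% and 47.2%, with Ltf at -1.62 on the ground and -2.33 in flight. S100a8 (0.48, adjusted p = 0.00675) and S100a9 (0.45, adjusted p = 0.0190) rose on the ground, against 3.13% of all genes. With median-of-ratios scaling 7 neutrophil markers were higher in wild-type mice in flight, 2 were lower and 5 higher in knockout mice, and 7 were lower and 3 higher in each genotype comparison. Their sum, which S100a8 and S100a9 dominate, was 30340 to 55080 TPM for GC-WT, 44150 to 61560 TPM for FL-WT, 41340 to 63840 TPM for GC-KO and 48850 to 65810 TPM for FL-KO mice. All 8 B cell markers fell in flight in both genotypes, against 39.0% and 53.1% of all genes (5 of 8 in each with median-of-ratios scaling). Their sum was 170 to 241 TPM for GC-WT, 83.8 to 213 TPM for FL-WT, 111 to 168 TPM for GC-KO and 67.9 to 110 TPM for FL-KO mice. No marker in the table was at 0 in every library.

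Within groups, the members followed different genes. Deviations of each library from its group mean, after median-of-ratios scaling, were compared over 24 libraries with those of the 5025 genes whose mean reached 5 TPM, as a description without a test, since all points share the library's preparation and cell make-up. Slc48a1 was most like Slc25a39 (r = 0.96), a mitochondrial carrier, Bpgm (r = 0.92), the red cell enzyme of 2,3-bisphosphoglycerate, and Bcl2l1 (r = 0.91). Blvrb was most like Mgst3 (r = 0.96), Ift140 (r = 0.92) and Gch1 (r = 0.92). Blvra was most like Rgcc (r = 0.90), Smim1 (r = 0.89), the gene of the Vel blood group antigen in humans, and Hist1h2bk (r = 0.87). Hmox1 was most like Glul (r = 0.83), Fcna (r = 0.81), a ficolin of macrophages, and Trf (r = 0.80), the transferrin gene.

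Fth1 was most like the glutathione peroxidase gene Gpx1 (r = 0.89), Cyb5a (r = 0.87) and Hagh (r = 0.86), and Ftl1 was most like Fis1 (r = 0.93), Supt4a (r = 0.92) and Rpl10 (r = 0.92). Slc40a1 had no close partner, with Tmx2 (r = 0.68), Cmpk2 (r = 0.66) and Farsb (r = 0.62) as its nearest. Among the members, Fth1 went with Blvrb (r = 0.80) and Ftl1 (r = 0.79), while Slc40a1 and Slc48a1 were unrelated (r = 0.0023) and Hmox1 and Slc40a1 nearly so (r = 0.0553).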

How the data were processed

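RNA of marrow cells was measured in 24 mice, grouped by the labels. Per the paper's methods and the labels, the authors extracted RNA (ISOGEN-LS) from marrow cells frozen in CELLBANKER2, made strand-specific libraries (MGIEasy RNA Directional Library Prep Set), read them on a DNBSEQ-G400, aligned to mm10 using STAR 2.6.1 and obtained TPM from RSEM 1.3.1. The deposited table gives TPM, with column sums of 999999.5 to 1000001.1. TPM is a share, so a rise of abundant RNAs lowers all others, and it keeps no depth.

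Genes above 1 TPM in at least 1 library (12373) were log2-transformed after adding 1 and compared by limma 3.58.1 (R 4.3.3) in 1 fit of group means over 24 libraries, with Benjamini-Hochberg adjustment over all genes. Intervals of 95% are not adjusted. Rank sums were compared by exact two-sided permutation as a second test (smallest p 0.00216). Nothing in the labels gives litters or cages, so p-values measure the spread between mice. The members and lists were chosen with earlier results of these data known. Named were the 7 members, Nfe2l2, ferritin pseudogenes, per list and comparison up to 3 genes that passed with the largest change and those not detected, and the 3 genes most like each member. Other genes named from the lists (Hmox2, Ncoa4, Bach1, Aco1, Ireb2, Spic, Slc7a11 and Hbb-bs, and repeats of a named gene in another comparison) were chosen after their values were seen. Symbols and coordinates were taken from GENCODE M21 on GRCm38, and 54723 of 54752 IDs matched. IDs were matched without their version. Python 3.11.15, pandas 2.3.3 and numpy 2.4.6 were used for other steps. The fit was tested on simulated data.

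Alternatives were a pseudocount of 0.1, no filter, a filter of 1 TPM passed by at least 6 libraries, quantile normalization, median-of-ratios scaling, leaving out 5 small RNAs, a mean-expression trend, an adjusted p under 0.05, a fit of the 2 compared groups, the rank-sum test, the mouse number as a block, adding ferritin pseudogene rows, and each library left out in turn. Leaving out each library after median-of-ratios scaling, and the block with that scaling, were added after seeing the data. Counts of fits with 1 library left out include those without a library of neither compared group, where only the error of the fold change can move.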

Additional observations from a re-analysis of the deposited data

How the results depend on the processing

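The scaling between libraries changed more results than any other choice. At TPM as deposited 2 members passed in wild-type mice in flight, 5 in knockout mice in flight, 1 in the knockout on the ground and 4 in the knockout in flight, each as lower. With median-of-ratios scaling 4, 2, 4 and 4 passed, and with quantile normalization 3 passed in knockout mice in flight (each lower) and 4 in the knockout on the ground (2 lower, 2 higher). Without 5 small RNAs, 4 passed in wild-type mice in flight and 4 in the knockout on the ground, all lower. In the compared groups alone, 1 passed in wild-type mice in flight and 2 in the knockout on the ground. The exact rank-sum test gave 0, 6, 0 and 2. With 1 library left out, 1 to 4 (1 without GC-WT mouse 6, GC-WT mouse 8 or FL-WT mouse 5, 4 without FL-WT mouse 7), 4 to 5, 1 to 2 (2 without GC-WT mouse 3, GC-WT mouse 5, FL-WT mouse 5 or GC-KO mouse 11) and 3 to 5 passed, and with median-of-ratios scaling as well 2 to 4, 2 to 2, 4 to 4 and 2 to 4. No member was a DEG, and none passed in the interaction, under any alternative run. The cause of these changes was not tested.

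Median-of-ratios scaling turned the direction in wild-type mice in flight for Fth1 (0.16) and Slc40a1 (0.16), and in knockout mice in flight for Hmox1 (0.20), Blvra (0.083), Fth1 (0.064) and Ftl1 (0.27). In the knockout on the ground it turned Ftl1 (0.086), Slc40a1 (0.19) and Slc48a1 (0.17), and in flight Blvra (0.15), Blvrb (0.30), Fth1 (0.28) and Slc48a1 (0.038). Quantile normalization turned Slc40a1 (0.034) in wild-type mice in flight, and Hmox1 (0.12), Blvra (0.087) and Ftl1 (0.047) in knockout mice in flight. In the knockout it turned Fth1 (-0.16), Slc40a1 (0.16) and Slc48a1 (0.065) on the ground, and Blvra (0.25), Blvrb (0.22), Slc40a1 (0.00737) and Slc48a1 (0.0304) in flight. In the interaction it turned Blvrb (0.041) and Ftl1 (0.018). Without the 5 small RNAs, the values that turned were Blvra (-0.02045) and Ftl1 (-0.00518) in wild-type mice in flight, Ftl1 (0.002035) in knockout mice in flight, and Blvrb (-0.029) and Fth1 (-0.077) in the knockout on the ground. In the interaction they were Blvrb (0.00958), Fth1 (0.0403), Ftl1 (0.00721) and Slc48a1 (0.00863).

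With 1 library left out, on either scale, log2 fold changes that crossed 0 ranged in wild-type mice in flight from -0.033 to 0.58 for Hmox1, -0.074 to 0.37 for Blvra, -0.29 to 0.22 for Fth1, -0.048 to 0.48 for Ftl1, -0.30 to 0.19 for Slc40a1 and -0.49 to 0.017 for Slc48a1. In knockout mice in flight they ranged from -0.29 to 0.30 for Hmox1, -0.36 to 0.13 for Blvra, -0.42 to 0.095 for Fth1 and -0.21 to 0.31 for Ftl1. In the knockout on the ground the ranges were -0.017 to 0.49 for Blvrb, -0.0299 to 0.44 for Fth1, -0.32 to 0.16 for Ftl1, -0.19 to 0.22 for Slc40a1 and -0.26 to 0.20 for Slc48a1. In the knockout in flight they were -0.29 to 0.20 for Blvra, -0.21 to 0.40 for Blvrb, -0.21 to 0.33 for Fth1, -0.54 to 0.015 for Slc40a1 and -0.45 to 0.078 for Slc48a1. At TPM as deposited, leaving out 1 library kept direction and call in 807 of the values of single genes, and turned 17. The 807 include fits that left out a library of neither compared group, which could not turn a direction.

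Mouse numbers are shared by flight and ground mice, and nothing in the labels says whether they pair them. Correlations between same-numbered mice were -0.0265 to 0.273, with 7 of 12 over 0.1, and 3 of 12 mice correlated best with their own number. These values cannot tell whether the mice are paired. The replicate block gave 3 members in wild-type and 5 in knockout mice in flight. Over all genes 6080 passed as lower with it in wild-type and 7487 in knockout mice in flight, against 4821 and 6565 without it. The replicate block with median-of-ratios scaling gave 4 (1 lower, 3 higher) and 2 (1 lower, 1 higher). Each number belongs to a flight and a ground mouse, so the block can move the error of a fold change in flight but not its value. There the directions of Fth1 (0.16) and Slc40a1 (0.16) in wild-type mice were thus turned by the scaling alone. The same holds for Hmox1 (0.20), Blvra (0.083), Fth1 (0.064) and Ftl1 (0.27) in knockout mice. The genotypes share no mouse numbers, so no such block was possible between them.

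Over all genes, DEGs in wild-type mice in flight were 116 lower and 8 higher, against 494 and 16 with a pseudocount of 0.1, 15 and 22 after median-of-ratios scaling, 32 and 10 after quantile normalization and 230 and 8 without the small RNAs. In knockout mice in flight they were 264 and 0, against 925 and 15, 22 and 8, and 25 and 7 with the first 3 of these. In the knockout they were 376 and 16 on the ground, against 946 and 37, 70 and 30, 86 and 33, and 902 and 21 with these 4, and 1034 and 12 in flight, against 1984 and 45, 424 and 26, and 309 and 28 with the first 3. Genes that passed in wild-type mice in flight, 4821 lower and 123 higher, came to 3130 and 66 in the compared groups alone and 1875 and 40 by rank-sum test. Without FL-WT mouse 5, 6 or 7 they came to 2840 and 166, 3041 and 110, and 7271 and 123. DEGs in wild-type mice in flight came to 77 and 10 without FL-WT mouse 5 and 193 and 9 without FL-WT mouse 7. Those in the knockout on the ground came to 248 and 17 without GC-KO mouse 4, 581 and 18 without GC-WT mouse 10, 605 and 16 without GC-KO mouse 11 and 580 and 20 without GC-KO mouse 12, and those in knockout mice in flight to 172 and 1 without GC-KO mouse 11. In the interaction 2 genes passed as lower and 0 as higher, against 20 and 2 with the replicate block, 29 and 2 after median-of-ratios scaling and 303 and 26 with both. The table holds no counts, so what depth limits is unknown.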
